A study of Homo sapiens with 6 samples.

Results

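Double-strand break and Fanconi repair genes were examined in RNA sequencing of RKO, a human cell line grown from a carcinoma of the colon. They are 40 named genes of the 58735 in the deposited table, in 5 groups by their roles. Control cells (Vector, 3 libraries, which the labels call negative control) were compared with cells overexpressing the long non-coding RNA LOC101927668 (LOC_OE, 3 libraries), in order to find genes whose expression differed with LOC101927668. Per the study's methods, overexpression lines were made by lentiviral transduction and puromycin selection, and the full-length transcript was carried on a plenti6 plasmid. The design text calls the replicates biological, but whether they came from separate transductions is not given in the sources used here, so p-values measure only the spread between these libraries.

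A break through both DNA strands can be repaired by homologous recombination, which copies the sister chromatid and therefore works mainly in S and G2 phase, or by end joining, which ligates the ends directly. The Fanconi anaemia pathway removes crosslinks between the strands when a replication fork meets them, and hands the resulting break to homologous recombination. Many of these genes are transcribed more in cycling cells, and inherited defects in several of them predispose to cancer.

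The unit of the table is FPKM, the fragments on a gene per kilobase of its exons, scaled to a total for the library, so levels of different genes in a library can be compared. The libraries held 15008842 to 18410231 reads on genes, and a single member had between 64 and 19476 reads in a library. The totals behind the FPKM, recovered from the values, were 18569332 to 18763335 in Vector and 14692797 to 16036779 in LOC_OE. They exceeded the reads on genes in every Vector library and lay below them in every LOC_OE library. The read counts of LOC101927668 were 1, 1 and 0 in Vector and 231, 270 and 276 in LOC_OE, which matches the labels. LOC_OE replicate 1 stood apart, with Pearson correlations across genes of 0.967 and 0.962 with its replicates, against 0.982 between LOC_OE replicates 2 and 3. Of 10 markers of colon epithelium, 4 were expressed (EPCAM, KRT8, KRT18 and CDX2), while CDH1 had 0 reads in every library and KRT19, KRT20, VIL1, CDH17 and LGALS4 were near 0. Of 8 markers of blood, fibroblast and endothelial cells, none exceeded 0.142 FPKM in any library. In bulk RNA, fewer cells of a state and less RNA per cell cannot be told apart.

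All 40 repair genes were expressed above the filter of 0.5 FPKM in at least 3 libraries. In LOC_OE, 14 of them (35%) rose and 1 fell at an adjusted p-value under 0.05 (limma on log2(FPKM + 1), adjusted over all 16061 genes tested), whereas 10.7% of all tested genes rose and 9.74% fell. At a fold change of at least 1.5 as well, 7 rose and 0 fell, against 4.63% and 5.58% of all tested genes. The 7 were XRCC2, NBN, RAD51AP1, PARP1, FANCI, BRCA1 and FANCD2. Every LOC_OE library lay above every Vector library for 23 of the 40 genes and below for 2, where 24.4% and 20.9% of all tested genes did so. The median log2 fold change of the 40 genes was 0.27, compared with 0.019 over all tested genes.

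**Figure D1:**
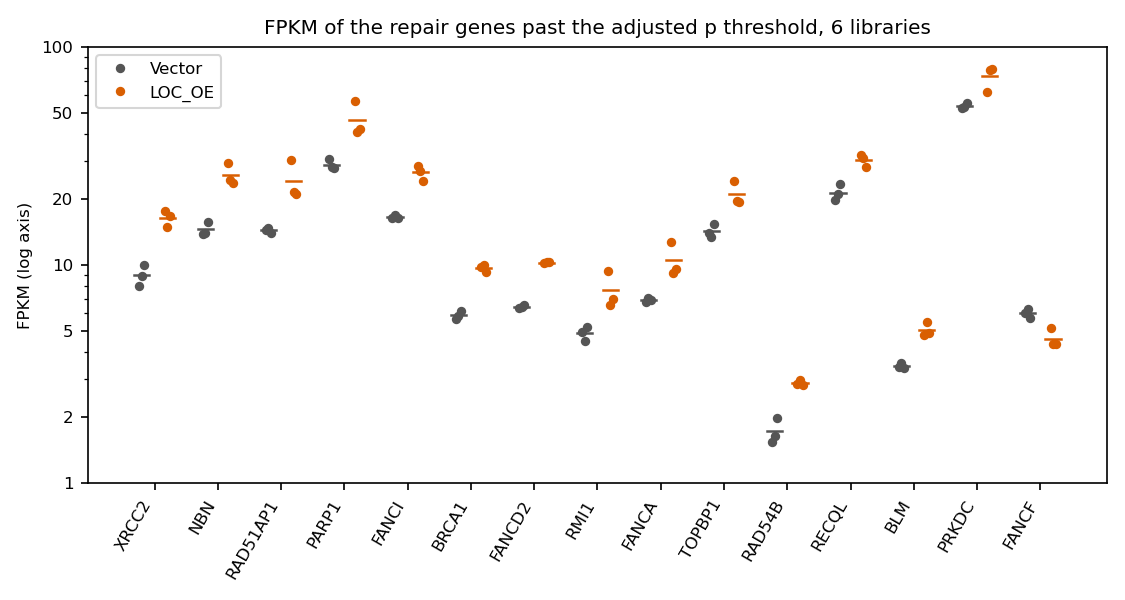
FPKM (log axis) of the 15 repair genes with an adjusted p-value under 0.05, ordered by fold change. Points are the 3 Vector (grey) and 3 LOC_OE (orange) libraries and bars their means. The groups are separate for each gene, and only FANCF is lower in LOC_OE.

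The scale of the libraries affected these counts. The FPKM of all genes summed to between 264150 and 280648 in the Vector libraries and between 305702 and 360434 in the LOC_OE libraries. The FPKM of all libraries were then brought to 1 common sum. The median of all tested genes moved to −0.18 and that of the repair genes to 0.062. In that fit 7 rose and 3 fell, beside 4.39% and 19.5% of all genes tested. BRCA1, FANCD2, FANCI, NBN, PARP1, RAD51AP1 and XRCC2 still rose, while FANCE, FANCF and RNF168 fell. BLM, FANCA, PRKDC, RAD54B, RECQL, RMI1 and TOPBP1 no longer passed. Without Vector replicate 2, only BRCA1 and FANCD2 rose (2 genes) and 0 fell, beside 0.897% and 1.41% of all genes. Without LOC_OE replicate 1, 19 rose and 2 fell, beside 19.4% and 16.1%.

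The promoters of genes with the largest changes are shown because core letters of E2F, the factor that turns on S phase genes, were more frequent in this list than among all promoters. RefSeq promoters (GRCh38.p14, 250 bases before to 50 after the start, first entry per gene) were found for 33 of the 40 genes, all but RAD54B, FANCI, WRN, RMI2, NBN, XRCC5 and PRKDC. The E2F core TTCCCGC, on either strand, was in 14 of the 33 (42.4%), compared with 6.56% of all 27305 promoters and 10.7% of the 9464 promoters of tested genes. With the other core, TTGGCGC, counted too, the numbers were 18 of 33 (54.5%), 9.33% and 15.3%. Among the genes that rose, 8 of 10 with a promoter held either core, and among the others 10 of 23 did. The CCAAT box (CCAAT) was in 16 of 33 (48.5%, against 37.0% of tested genes), the ETS core CCGGAAG in 10 (30.3% against 20.4%), the NRF1 core GCATGCGC in 3 (9.09% against 5.89%) and the CHR element TTTGAA in 3 (9.09% against 9.43%). These letters were chosen after the values were seen, and a match is not evidence of binding. A part of E2F or of any other factor in the changes was not tested. The 250 bases before the start follow for the 3 genes with the largest absolute log2 fold changes among the 33 with a promoter. They are printed 5′ to 3′, with matches in capitals. They lie at chr7:152676142-152676391 (minus strand, XRCC2), chr12:4538640-4538889 (plus strand, RAD51AP1) and chr1:226408094-226408343 (minus strand, PARP1).
XRCC2: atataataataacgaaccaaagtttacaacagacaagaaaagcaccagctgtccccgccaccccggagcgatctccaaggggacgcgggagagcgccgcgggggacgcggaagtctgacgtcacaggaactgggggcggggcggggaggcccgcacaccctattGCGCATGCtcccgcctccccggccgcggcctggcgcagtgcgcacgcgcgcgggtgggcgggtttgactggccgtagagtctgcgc
RAD51AP1: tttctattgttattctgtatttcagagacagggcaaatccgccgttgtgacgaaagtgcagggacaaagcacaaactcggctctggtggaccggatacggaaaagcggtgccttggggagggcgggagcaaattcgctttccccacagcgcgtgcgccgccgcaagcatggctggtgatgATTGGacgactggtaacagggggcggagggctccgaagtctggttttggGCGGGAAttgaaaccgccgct
PARP1: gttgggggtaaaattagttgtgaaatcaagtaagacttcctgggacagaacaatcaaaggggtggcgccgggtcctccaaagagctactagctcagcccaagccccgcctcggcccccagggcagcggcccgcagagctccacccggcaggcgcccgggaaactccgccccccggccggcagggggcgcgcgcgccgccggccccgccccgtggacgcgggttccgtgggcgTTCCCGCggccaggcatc
The capitals are the NRF1 core in XRCC2 and the CCAAT box and then the E2F core in RAD51AP1, all on the other strand. In PARP1 they are the E2F core on the printed strand. The E2F core of XRCC2 lies in the 50 bases after the start, which are not shown.

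Homologous recombination begins once BRCA1 and its partner BARD1 have favoured resection, and PALB2 then links BRCA1 to BRCA2, which prepares single-stranded DNA for strand exchange. Of the 10 genes of this core, 4 rose, 0 fell and 6 did not pass, where 10.7% of all tested genes rose and 9.74% fell. XRCC2, which acts in strand exchange, had the largest increase of the 40 genes. Its FPKM was 8.02, 8.92 and 9.98 in Vector and 17.6, 14.9 and 16.8 in LOC_OE (log2 fold change 0.81, standard error 0.11, adjusted p = 0.00789). RAD51AP1, which stimulates the pairing of DNA strands, had 14.5, 14.8 and 14.0 FPKM in Vector and 30.4, 21.5 and 21.2 in LOC_OE (log2 fold change 0.70, standard error 0.15, adjusted p = 0.0230). LOC_OE replicate 1 was the highest library for both, and the other replicates also lay above all Vector libraries. BRCA1 had 5.69, 5.84 and 6.18 FPKM in Vector and 9.78, 9.98 and 9.27 in LOC_OE, a change that was even across the replicates (log2 fold change 0.63, standard error 0.076, adjusted p = 0.00676). RAD54B, a translocase of the SWI2/SNF2 type, had 1.54, 1.65 and 1.99 FPKM in Vector and 2.83, 2.98 and 2.81 in LOC_OE (log2 fold change 0.51, standard error 0.097, adjusted p = 0.0183). It shares 59.1% of its exon bases with FSBP on the same strand, so reads of either gene cannot be fully told apart. FSBP was itself at 0.209 FPKM or less, so the level of RAD54B is uncertain.

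The partners of BRCA1 did not pass the threshold. The mean FPKM of BARD1 was 6.25 ± 0.366 in Vector and 7.33 ± 0.278 in LOC_OE (± SD over 3 libraries, here and below), that of PALB2 6.57 ± 0.386 and 6.36 ± 0.258, and that of BRCA2 2.14 ± 0.440 and 2.73 ± 0.485. Their adjusted p-values from limma were 0.121, 0.755 and 0.267. BRCA1 and its partners had log2 fold changes between −0.040 (PALB2) and 0.63 (BRCA1), and the differences between these genes were not tested. RAD54L, RAD51C and XRCC3 were highest in LOC_OE replicate 1, while at least 1 of the other LOC_OE replicates lay within or below the Vector libraries. RAD54L, the translocase that drives strand exchange, had 7.62, 7.75 and 7.68 FPKM in Vector and 13.3, 6.43 and 8.35 in LOC_OE. RAD51C, which acts with XRCC2 and XRCC3, had 5.27, 4.56 and 4.93 in Vector and 7.79, 4.63 and 4.97 in LOC_OE, and XRCC3, its partner, had 3.32, 3.72 and 3.70 in Vector and 5.61, 3.46 and 3.13 in LOC_OE. Without LOC_OE replicate 1, the log2 fold changes of these 3 genes were −0.059, −0.028 and −0.094, so their sign rested on that library.

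**Figure D2:**
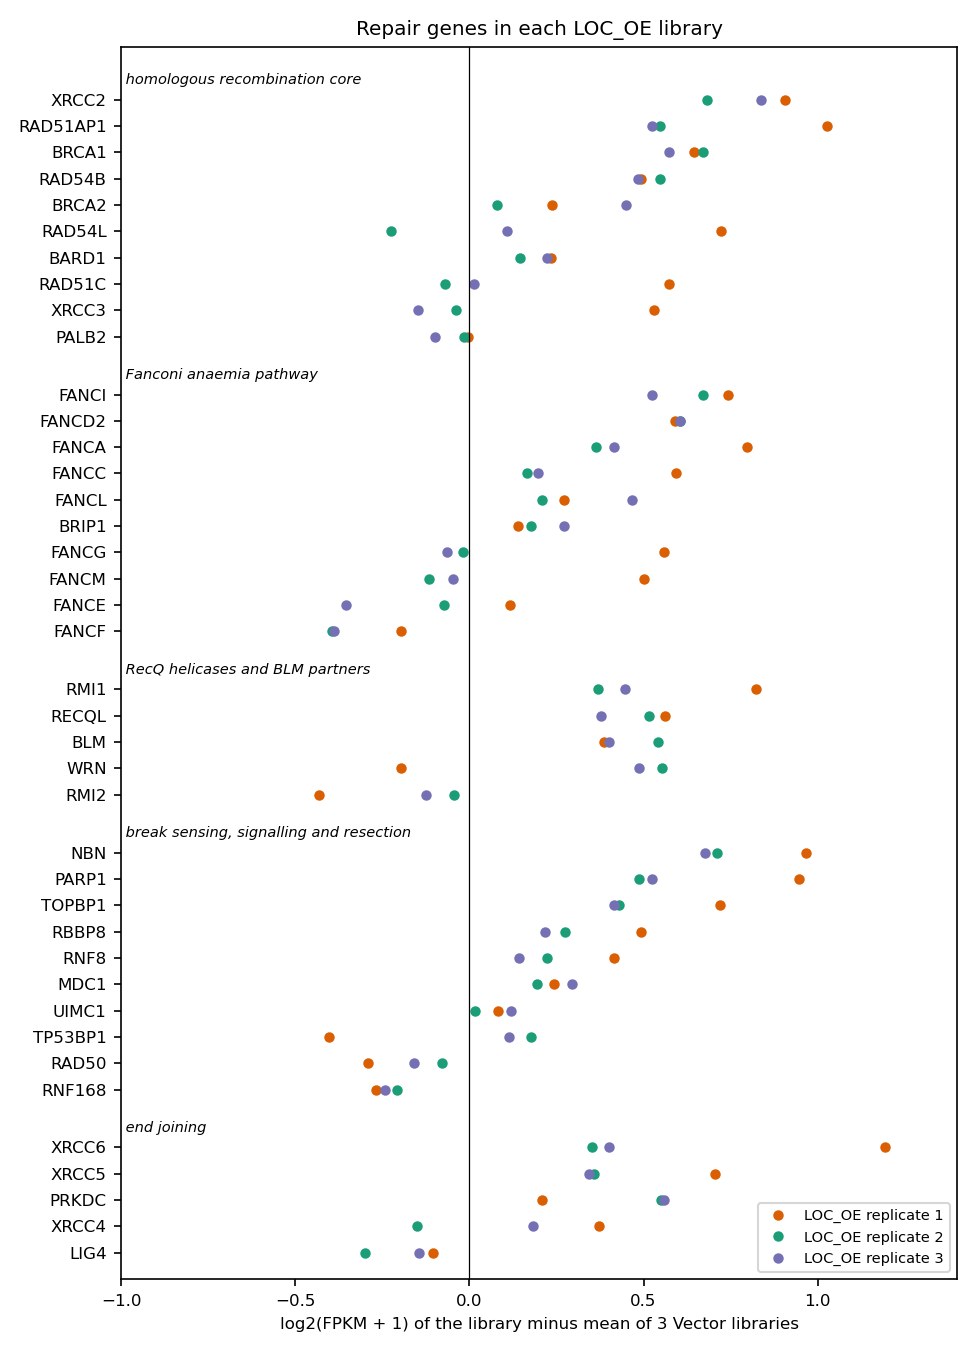
Difference of log2(FPKM + 1) between each LOC_OE library and the mean of the 3 Vector libraries for the 40 repair genes, grouped by role and ordered by fold change. Replicate 1 (orange) lies apart from replicates 2 and 3 for genes such as XRCC6, RAD54L and WRN, while the 3 replicates of FANCD2, BRCA1 and RAD54B lie close together.

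In the Fanconi anaemia pathway, a core complex (FANCA, FANCC, FANCE, FANCF, FANCG, FANCL and FANCM here) puts ubiquitin on the FANCD2 and FANCI pair, which then clamps onto DNA. Of 10 genes, 3 rose, 1 fell and 6 did not pass, where 10.7% of all tested genes rose and 9.74% fell. The substrates of the complex both rose. FANCD2 had 6.34, 6.41 and 6.54 FPKM in Vector and 10.2, 10.3 and 10.3 in LOC_OE, with the lowest adjusted p of the 40 genes (log2 fold change 0.60, standard error 0.069, adjusted p = 0.00633). FANCI, the most abundant gene of the pathway, had 16.5, 17.0 and 16.4 FPKM in Vector and 28.5, 27.0 and 24.3 in LOC_OE (log2 fold change 0.65, standard error 0.085, adjusted p = 0.00789). The core complex moved unevenly. FANCA had 6.75, 7.09 and 6.91 FPKM in Vector and 12.7, 9.19 and 9.56 in LOC_OE (log2 fold change 0.53, standard error 0.13, adjusted p = 0.0343), and 23.6% of its exon bases lie in ZNF276 on the opposite strand. FANCF, the adaptor of the core complex, fell from 6.01, 6.29 and 5.74 FPKM in Vector to 5.12, 4.33 and 4.36 in LOC_OE (log2 fold change −0.33, standard error 0.090, adjusted p = 0.0482). The fall of FANCF was the only one among the 40 genes with all 6 libraries. It passed in only 1 of 6 fits that left out a library, the one without LOC_OE replicate 1. The rises of FANCA, RMI1 and PRKDC also passed in that fit alone, and those of RAD54B, BLM, RECQL and TOPBP1 in 2. The rises of BRCA1 and FANCD2 passed in all 6.
The other 6 genes of the pathway had log2 fold changes between −0.10 (FANCE) and 0.32 (FANCC). FANCL, the ubiquitin ligase, had 8.35 ± 1.16 FPKM in Vector and 10.6 ± 1.10 in LOC_OE, and the helicase BRIP1 had 5.54 ± 0.484 and 6.47 ± 0.358, in each case without overlap between the groups but with adjusted p-values of 0.112 and 0.169 from limma. FANCG and FANCM were above all Vector libraries in LOC_OE replicate 1 alone. FANCG had 15.3, 14.6 and 14.6 FPKM in Vector and 22.3, 14.6 and 14.1 in LOC_OE.

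BLM, a RecQ helicase, dissolves joined recombination intermediates together with RMI1 and RMI2. Of the 5 genes of this group 3 rose and 0 fell, beside 10.7% and 9.74% of all tested genes. After rescaling to 1 common sum 0 rose and 0 fell, beside 4.39% and 19.5% of all genes tested. BLM had 3.41, 3.54 and 3.36 FPKM in Vector and 4.80, 5.46 and 4.85 in LOC_OE (log2 fold change 0.44, standard error 0.082, adjusted p = 0.0168). RMI1 had 4.94, 4.50 and 5.18 FPKM in Vector and 9.37, 6.58 and 6.99 in LOC_OE (log2 fold change 0.55, standard error 0.14, adjusted p = 0.0363). RMI2 did not follow its partners, with 3.49 ± 0.207 FPKM in Vector and 2.93 ± 0.537 in LOC_OE (adjusted p = 0.284 from limma). RECQL, the most abundant helicase of the group, had 19.8, 21.1 and 23.5 FPKM in Vector and 32.1, 31.1 and 28.1 in LOC_OE (log2 fold change 0.48, standard error 0.096, adjusted p = 0.0204), and 41.5% of its exon bases lie in PYROXD1 on the opposite strand. WRN, the helicase on which cells with unstable microsatellites depend, had 6.23, 6.71 and 7.11 FPKM in Vector and 5.70, 10.3 and 9.75 in LOC_OE. LOC_OE replicate 1 of WRN was thus the lowest of all 6 libraries and the other replicates the highest. WRN did not pass with the 6 libraries (log2 fold change 0.28, adjusted p = 0.363) but did once LOC_OE replicate 1 was left out (0.52, adjusted p = 0.00383).

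Breaks are sensed by the complex of MRE11, RAD50 and NBN and by PARP1, and are marked by MDC1, RNF8, RNF168 and TP53BP1. Of 10 genes for sensing, signalling and resection, 3 rose and 0 fell, beside 10.7% and 9.74% of all tested genes. Without LOC_OE replicate 1, 5 rose and 1 fell, beside 19.4% and 16.1% of all tested genes. NBN, which recruits the ATM kinase, had 13.8, 14.1 and 15.8 FPKM in Vector and 29.4, 24.5 and 23.8 in LOC_OE (log2 fold change 0.78, standard error 0.11, adjusted p = 0.00872). PARP1, the most abundant gene of this group and the target of PARP inhibitors, had 30.7, 28.2 and 27.8 FPKM in Vector and 56.6, 40.9 and 42.0 in LOC_OE (log2 fold change 0.65, standard error 0.14, adjusted p = 0.0239). TOPBP1, an activator of the ATR kinase, had 14.0, 13.5 and 15.5 FPKM in Vector and 24.2, 19.6 and 19.4 in LOC_OE (log2 fold change 0.52, standard error 0.11, adjusted p = 0.0247). All 3 genes were highest in LOC_OE replicate 1.
The ubiquitin signalling genes showed smaller differences. MDC1, the scaffold of the signal, had 11.3 ± 0.120 FPKM in Vector and 13.5 ± 0.504 in LOC_OE (adjusted p = 0.0567 from limma), and RBBP8, the partner of the MRE11 nuclease, had 7.44 ± 0.280 and 9.63 ± 1.09 (adjusted p = 0.0580 from limma). The ligase RNF8 had 7.67 ± 0.493 FPKM in Vector and 9.39 ± 1.03 in LOC_OE, and the ligase RNF168, which acts after it, had 14.6 ± 0.854 and 12.2 ± 0.277. RNF8 and RNF168 thus lay on opposite sides of 0, each without overlap between the groups, but neither passed (adjusted p = 0.116 and 0.0747 from limma). Without LOC_OE replicate 1, MDC1 and RBBP8 rose (adjusted p = 0.0172 and 0.0218) and RNF168 fell (log2 fold change −0.22, adjusted p = 0.0367). After rescaling to 1 common sum RNF168 also fell (−0.48, adjusted p = 0.0152). MDC1 and RBBP8 did not pass after this rescaling (log2 fold changes 0.0022 and 0.094, adjusted p = 0.988 and 0.375 from limma). UIMC1, which reads the ubiquitin mark, had 8.71 ± 0.328 and 9.21 ± 0.370 FPKM. TP53BP1, which protects ends from resection, had 6.33, 6.28 and 6.36 FPKM in Vector and 4.54, 7.28 and 6.92 in LOC_OE, so that LOC_OE replicate 1 lay below and the other replicates above Vector.

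End joining starts with the Ku dimer of XRCC5 and XRCC6, which recruits the kinase PRKDC, and ends with LIG4 and its partner XRCC4. Ku and PRKDC were the most abundant of the 40 genes. XRCC6 had 121, 111 and 111 FPKM in Vector and 263, 146 and 151 in LOC_OE, and XRCC5 had 82.5, 68.8 and 72.6 in Vector and 122, 95.6 and 94.6 in LOC_OE. Every LOC_OE library of both Ku genes lay above every Vector library, but LOC_OE replicate 1 lay far above the others, and neither gene passed (log2 fold change 0.65 and 0.47, adjusted p = 0.0933 and 0.0514 from limma). PRKDC had 52.3, 53.0 and 55.1 FPKM in Vector and 61.9, 78.8 and 79.2 in LOC_OE, with replicate 1 the lowest of its group, and rose (log2 fold change 0.44, standard error 0.12, adjusted p = 0.0427). After rescaling to 1 common sum PRKDC no longer passed (log2 fold change 0.18, adjusted p = 0.446 from limma). Without LOC_OE replicate 1, XRCC5, XRCC6 and PRKDC all passed, with log2 fold changes of 0.35, 0.38 and 0.55 (adjusted p = 0.0227, 0.00656 and 0.00120 from limma). In that fit, 19.4% of all tested genes rose. LIG4 and XRCC4, of the ligase step, did not pass in either fit. LIG4 had 7.07 ± 0.940 FPKM in Vector and 6.09 ± 0.493 in LOC_OE, and XRCC4 had 4.42 ± 0.381 and 5.00 ± 1.07. With all 6 libraries their adjusted p-values from limma were 0.290 and 0.547. Without LOC_OE replicate 1, their log2 fold changes were −0.22 and 0.016 (adjusted p = 0.178 and 0.935 from limma). The difference between the steps was not tested.

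**Figure D3:**
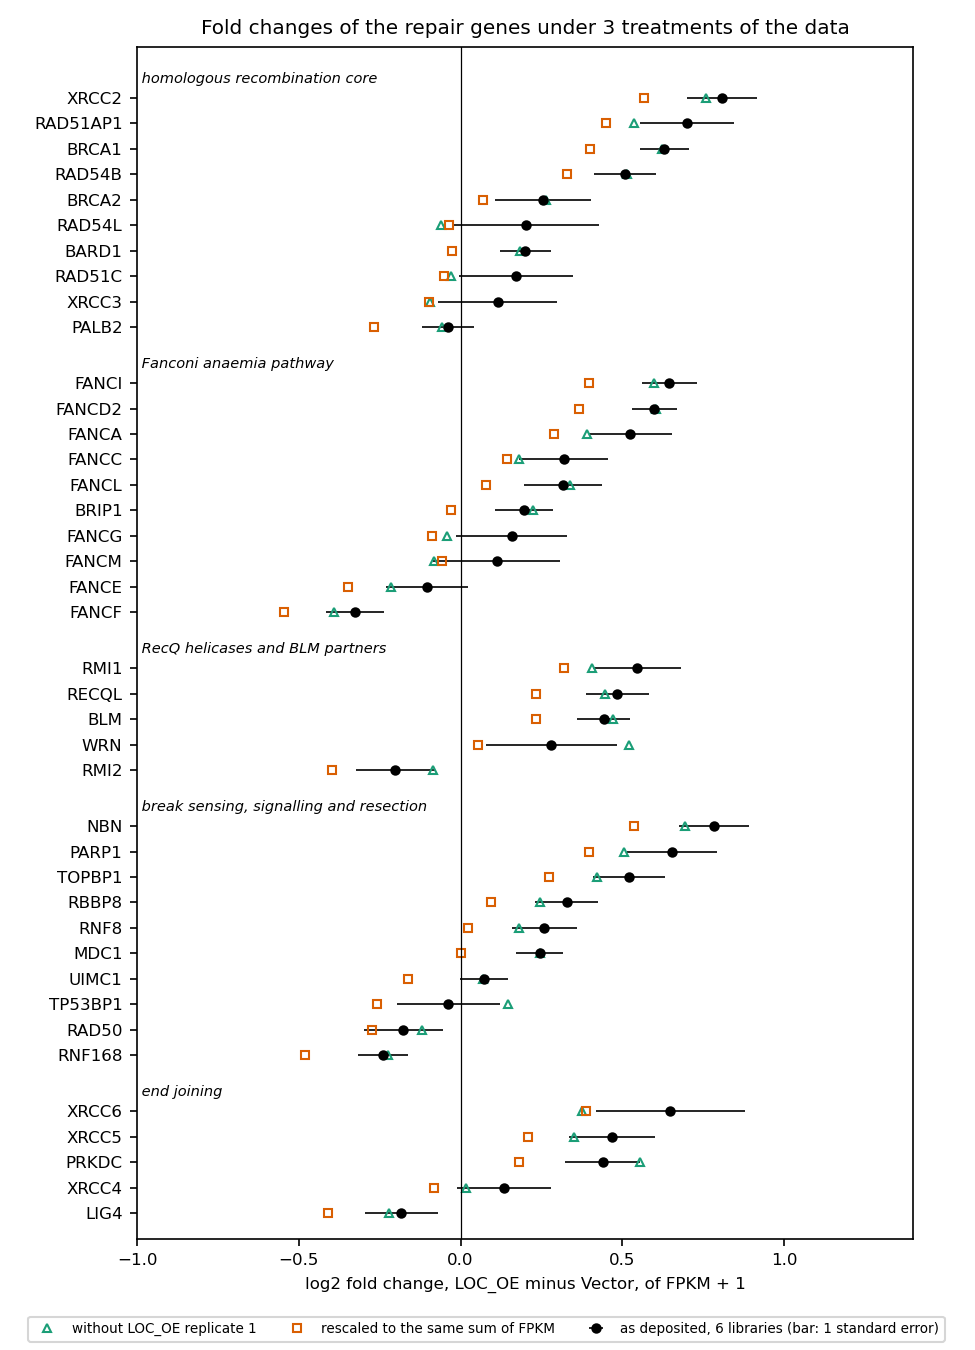
Log2 fold change (LOC_OE minus Vector, of FPKM + 1) of the 40 repair genes, from all 6 libraries as deposited (black, bars 1 standard error), without LOC_OE replicate 1 (green) and after rescaling to the same sum of FPKM (orange). Rescaling moves the genes to the left, to a median of 0.062, and takes 9 of the genes above 0 to below it, none of which had passed the threshold.

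The difference between replicates followed the gene. LOC_OE replicate 1 lay above both other LOC_OE replicates for 25 of the 40 genes, below them for 9 and between them for 6. Its gap to the mean of the other LOC_OE replicates was above 0 for 27 of the 40 genes, beside 8327 of 16054 tested genes. The median difference from the Vector mean, on the log2 scale, was 0.49 in LOC_OE replicate 1, 0.20 in replicate 2 and 0.28 in replicate 3. Over all tested genes these medians were 0.032, 0.013 and 0.011. For 16 S phase genes (the MCM helicase, PCNA, ribonucleotide reductase and others) the medians were 1.09, 0.34 and 0.37, and 6 of the 16 rose and 0 fell, beside 10.7% and 9.74% of all tested genes. Of the 16, 12 rose without LOC_OE replicate 1, beside 19.4% of all tested genes. After rescaling to 1 common sum 4 rose, beside 4.39%. Their summed level was 542 to 592 FPKM in Vector and 1180, 711 and 691 in LOC_OE replicates 1, 2 and 3. The part of cell cycle state in the values of the repair genes was not tested. Across the 40 genes, the gap between LOC_OE replicate 1 and the mean of the other replicates had a Spearman correlation of −0.289 with exon length and 0.214 with GC content, and across 16054 tested genes −0.0948 and 0.226. These are descriptions over genes of the same libraries, and the part of length and GC content was not tested.

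A list of 61 further repair genes of the same and neighbouring pathways was examined beside them. Of 57 that passed the filter, 6 rose and 3 fell, beside 10.7% and 9.74% of all tested genes, and their median log2 fold change was 0.15. Leaving out LOC_OE replicate 1 gave 15 that rose and 7 that fell, beside 19.4% and 16.1% of all tested genes. Among the genes past the threshold, the largest increases were those of RECQL4, a RecQ helicase of replication initiation (log2 fold change 0.86, adjusted p = 0.0310), BRCC3, a deubiquitinase of the BRCA1-A complex (0.64, adjusted p = 0.0173), and DNA2, a resection nuclease (0.52, adjusted p = 0.0195). The decreases were those of XRCC1, the scaffold of single-strand break repair (log2 fold change −0.48, adjusted p = 0.0449), POLM, an end joining polymerase (−0.40, adjusted p = 0.0254), and ERCC4, a structure-specific nuclease (−0.39, adjusted p = 0.0401). After rescaling to 1 common sum, RECQL4 was the 1 gene of the list that rose (adjusted p = 0.0265) and 9 fell, beside 4.39% and 19.5% of all genes tested. BRCC3 and DNA2 no longer passed after this rescaling (adjusted p = 0.109 and 0.0513).

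The levels of some repair genes may depend on how overlapping exons were counted, which was not tested. RAD50 was the lowest of the 40 genes, with 0.616, 0.810 and 0.754 FPKM in Vector and 0.409, 0.632 and 0.543 in LOC_OE, while NBN, its partner in the same complex, was at 14.6 ± 1.08 FPKM in Vector. Of the exon bases of RAD50, 79.7% also belong to AC116366.3, a gene on the same strand that was itself at 0.0180 FPKM or less. NHEJ1, an end joining factor, had 1 to 9 reads and shares 65.4% of its exon bases with AC068946.1. Genes with similar shares were not all so low. XRCC3 shares 76.7%, on the opposite strand, and CENPS, of the further repair genes, 64.75%, on the same strand. Their mean levels in Vector were 3.58 and 1.23 FPKM. The values of RAD50 and NHEJ1, and those of RAD54B with its overlap with FSBP, are therefore uncertain as levels. A loss of reads that fall on both genes of such a pair was not tested. Over 20% of exon bases were shared for 7 of the 40 genes: RAD50, XRCC3 (76.7%), RAD54B, RECQL, TP53BP1, RAD54L and FANCA, while 19 shared none.

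**Figure D4:**
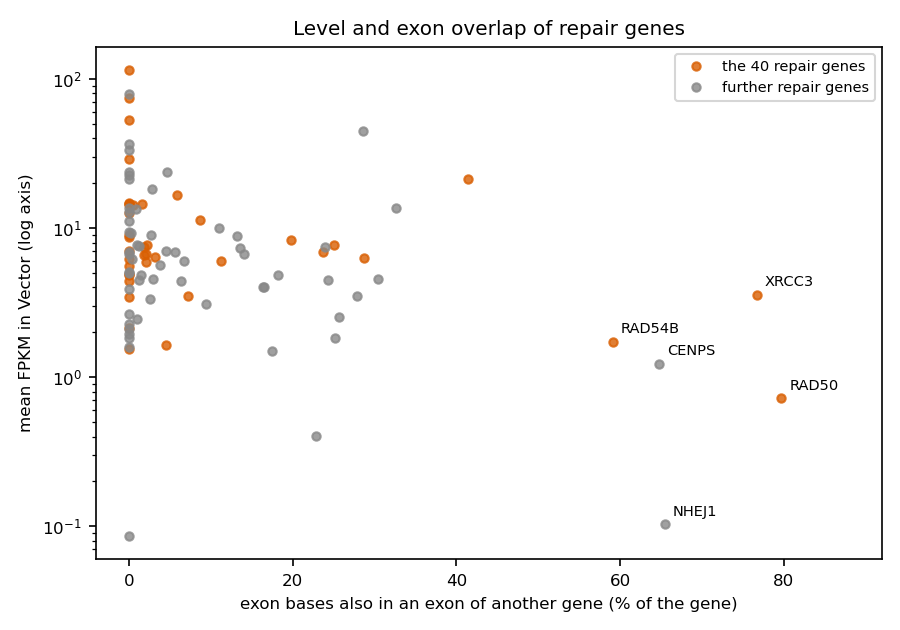
Mean FPKM in Vector (log axis, 3 libraries) against the share of exon bases that also lie in an exon of another gene in GENCODE version 29, for the 40 repair genes (orange) and further repair genes (grey). RAD50 and NHEJ1 have shares of 79.7% and 65.4% and mean levels under 1 FPKM. XRCC3, CENPS and RAD54B, with shares of 76.7%, 64.75% and 59.1%, have mean levels of 3.58, 1.23 and 1.73 FPKM.

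Some of the genes start back to back with another gene, which can be an antisense RNA or a pseudogene. The share of all genes that do so was not counted. For 18 of the 40, a gene on the opposite strand starts within 1000 bases and points away, and of the 19 such neighbours 14 were tested. Of these, 3 rose and 0 fell, beside the 10.7% and 9.74% of all tested genes. MCM4, a subunit of the replicative helicase, starts 2 bases from PRKDC and had 46.1, 42.9 and 42.2 FPKM in Vector and 108, 67.8 and 70.8 in LOC_OE (log2 fold change 0.86, adjusted p = 0.0237). The order of the LOC_OE replicates differed within this pair, since replicate 1 was the highest for MCM4 and the lowest for PRKDC. HNRNPK, beside RMI1, and DESI1, beside XRCC6, had log2 fold changes of 0.68 and 0.76 (adjusted p = 0.00956 and 0.00459). NBR1, beside BRCA1, had 28.1, 26.6 and 27.7 FPKM in Vector and 11.7, 23.1 and 24.0 in LOC_OE, so each of its LOC_OE libraries lay below Vector while those of BRCA1 lay above, and it did not pass (log2 fold change −0.53, adjusted p = 0.191).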

How the data were processed

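Total RNA of RKO cells was sequenced in 3 Vector and 3 LOC_OE libraries, grouped by their labels. The deposited table gives FPKM per gene, which the authors computed from aligned reads; HISAT2 2.0.4, StringTie 1.3.0 and hg38 are named in the submitters' processing notes without a role, and the counting tool and its use of strand are not given in the sources used here. All 58735 gene IDs matched GENCODE version 29, 27612 genes were at 0 in every library, and 0 value columns were left unused. FPKM times exon length gave whole reads (tolerance 0.01) for 100% of values.

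Genes with at least 0.5 FPKM in at least 3 libraries were fitted as log2(FPKM + 1) with limma 3.58.1 (trended variance, R 4.3.3), so fold changes of low genes are understated. All adjusted p-values are two-sided, from limma, and Benjamini-Hochberg adjusted over all genes tested. The script was tested on simulated data. An exact permutation of 3 against 3 libraries cannot give a p below 0.1. Exon overlap and distances between starts were taken from GENCODE. The alternatives were another pseudocount, filter, scaling, variance model, array weights, a replicate block, leaving out each library, and limma voom on the recovered reads. Voom took the totals behind the FPKM as library sizes, so it kept the scale of the FPKM and is no check of that scale.

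The members and lists were chosen with earlier results of these data known. Values per library were given, by rule, for members past the threshold and for the most abundant member of each role, and for the 3 largest increases and decreases of the further repair genes. Values of other members, of neighbouring genes and the motifs were added after the values were seen. A gene of the further repair list is not reported here and is left out of the plot of exon overlap.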

Additional observations from a re-analysis of the deposited data

How the results depend on the processing

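The number of the 40 genes that rose was 14 as reported, between 2 (without Vector replicate 2) and 19 (without LOC_OE replicate 1) when a library was left out (5 and 4 without Vector replicates 1 and 3, 7 without LOC_OE replicate 2), 7 after rescaling to the same sum, 21 with array weights (which gave LOC_OE replicate 1 a weight of 0.104) and 16 with voom. With the fold threshold it was 7, between 2 and 7 with a library left out, 0 after rescaling and 4 after quantile normalization. The number that fell was 1, between 0 and 2 with a library left out, 3 after rescaling and with array weights, 2 after quantile normalization and at unadjusted p, and 0 with a pseudocount of 0.1, no filter, no trend or voom. Of the further repair genes, 6 rose and 3 fell, between 0 and 15 and between 0 and 7 with a library left out, 2 and 0 with no filter, 1 and 9 after rescaling, 22 and 8 with array weights, 17 and 5 at unadjusted p, and 13 rose with voom. Of all genes, 1712 rose and 1565 fell, between 144 and 3117 and between 227 and 2586 with a library left out, 711 and 3162 after rescaling, 4362 and 3724 with array weights, 3111 and 2744 at unadjusted p, and 1052 rose with no filter. The cause of these differences was not tested.

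The labels number the libraries without saying whether they are paired. Deviations from the group mean had correlations of 0.111, −0.0338 and 0.116 between Vector and LOC_OE libraries of the same number. Between libraries of different numbers they were −0.128 to 0.0581. Deviations from a mean of 3 libraries are not independent, so these values cannot decide whether the numbers pair the libraries. With a replicate block, 10 of the 40 genes rose and 0 fell, 3 and 1 of the further repair genes did, and 1125 and 940 of all genes.

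The sign of the log2 fold change turned for genes that had not passed. After rescaling it was −0.028 for BARD1, −0.051 for RAD51C, −0.035 for RAD54L, −0.097 for XRCC3, −0.089 for FANCG, −0.057 for FANCM, −0.029 for BRIP1, −0.16 for UIMC1 and −0.083 for XRCC4. With array weights it was −0.031 for RAD51C, −0.17 for RAD54L, −0.054 for XRCC3, −0.0078 for FANCG, −0.11 for FANCM, 0.16 for TP53BP1 and −0.093 for XRCC4. Without LOC_OE replicate 1 it was −0.028 for RAD51C, −0.059 for RAD54L, −0.094 for XRCC3, −0.042 for FANCG, −0.082 for FANCM and 0.15 for TP53BP1, and without LOC_OE replicate 3 it was 0.022 for FANCE. Over the fits that left out a library, the opposite ends were 0.29 for RAD51C, 0.41 for RAD54L, 0.25 for XRCC3, −0.21 for FANCE, 0.27 for FANCG, 0.23 for FANCM and −0.14 for TP53BP1.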
